A study of Homo sapiens with 4 samples.

Results

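Transcripts of 51 genes of DNA replication and S phase were followed in the human neuroblastoma line SH-SY5Y, with and without the nitric oxide donor sodium nitroprusside (SNP). The genes were taken by name from a list of licensing, fork and nucleotide supply genes described as driven by the E2F transcription factors, and all 51 were found among the 58243 genes of each table. All 51 passed the expression filter and were tested, so no member is left out below. The control group comprised 2 libraries (a and b) of cells given no agent, and the SNP group comprised 2 libraries (a and b) of cells exposed for 8 h. The dose that was sequenced is not given in the labels, which call the RNA of the SNP group oxidized. The treatment text in the labels speaks of cells differentiated with retinoic acid, whereas the growth text names no retinoic acid, so it stays unclear from the labels whether both groups were differentiated. The labels speak of triplicate treatments within a single experiment, and nothing in them says that a and b came from separate cultures, so the p-values measure the spread between these libraries, which may be technical.

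Before S phase, the origin recognition complex, CDC6 and CDT1 load the MCM2 to MCM7 ring onto DNA, a step called licensing. CDC45 and the GINS complex then turn the ring into the active helicase, primase and the polymerases copy the strands, and the PCNA clamp, placed by replication factor C, holds the polymerases on DNA. Activating E2F factors raise the transcription of most of these genes at the passage from G1 to S phase, and cyclin-dependent kinase inhibitors such as CDKN1A hold that passage back. Neuroblastoma lines divide in culture, and exit from the cell cycle accompanies their neuronal differentiation.

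The libraries held between 5613144 and 8056550 gene counts, and the members were counted between 65 and 4317 times in each library. Levels are given as CPM, counts divided by a library size that was scaled by the trimmed mean of M-values (TMM), and differences as log2 fold changes of SNP over control with their standard error (SE). A gene was called when its Benjamini-Hochberg adjusted p-value over all genes tested was under 0.05 in edgeR's quasi-likelihood test. Of 9 adrenergic neuroblastoma markers other than TH, all were counted in every library, and TH was listed at 0 counts in all 4. The summed level of the 10 adrenergic markers was 3333 and 3415 CPM in control and 2650 and 2814 CPM in SNP libraries, with 5 of the 9 tested lower and 2 higher. That of 10 mesenchymal markers was 548 and 588 CPM in control and 471 and 467 CPM in SNP libraries, with 1 of the 7 tested lower and none higher. Both sums were lower in both SNP libraries, and their part in the results was not tested. Among 8 retinoic acid response genes, CYP26A1 and RARRES3 were listed at 0 counts in all 4 libraries, and the 4 genes of that list that could be tested had log2 fold changes between -0.14 and 0.14, none of them called.

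Most replication genes did not pass the test between SNP and control, and the minority that passed moved in both directions. Of the 51 members, 9 fell, 4 rose and 38 did not pass the test. Among the 38, 26 had absolute log2 fold changes under 0.2, and the values ran from -0.53 to 0.19. The members called were 25.5% of the list, against 26.2% of all 14759 genes tested, so the share called was near the background. The lower calls were 17.6% of the members against 12.6% of all genes, and the higher calls 7.84% against 13.6%. The genes that fell were CDT1, POLA2, RRM2, E2F8, GINS2, RFC2, DTL, E2F1 and MCM4, and those that rose were CHAF1A, RFC1, UHRF1 and POLA1. The median log2 fold change was -0.12 over the members and -0.0042 over all genes tested. The summed level of the 51 members was 5480 and 5542 CPM in control and 5334 and 5149 CPM in SNP libraries. In bulk RNA, fewer cells in S phase and less of a transcript per cell cannot be told apart.

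Both SNP values lay below both control values for 25 members (49.0%) and above them for 5 (9.80%), and the groups overlapped for 21. Over all genes these patterns took 32.3% (below) and 31.7% (above). This split depended on the scaling. With the read totals implied by the deposited RPKM values, 18 members lay below and 11 above, beside 25.2% and 34.7% of all genes. With total counts and no TMM the numbers were 24 and 6, beside 32.1% and 31.9% of all genes.

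Other settings gave these counts of members called, each with the share of all genes called. With DESeq2 size factors 13 members were called, beside 26.3% of all genes, with limma-voom 12 beside 26%, and with RPKM read totals 10 beside 22.4%. With a mean count of at least 50 the numbers were 15 and 33%, with no filter 11 and 15.5%, and with DESeq2's Wald test 11 and 16.4%. Among the 28 members without exon overlap 9 were called, beside 27.9% of such genes. Without control a 10 members were called beside 16% of all genes, without control b 9 beside 15.8%, without SNP a 13 beside 20.4%, and without SNP b 15 beside 27.4%.

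**Figure D1:**
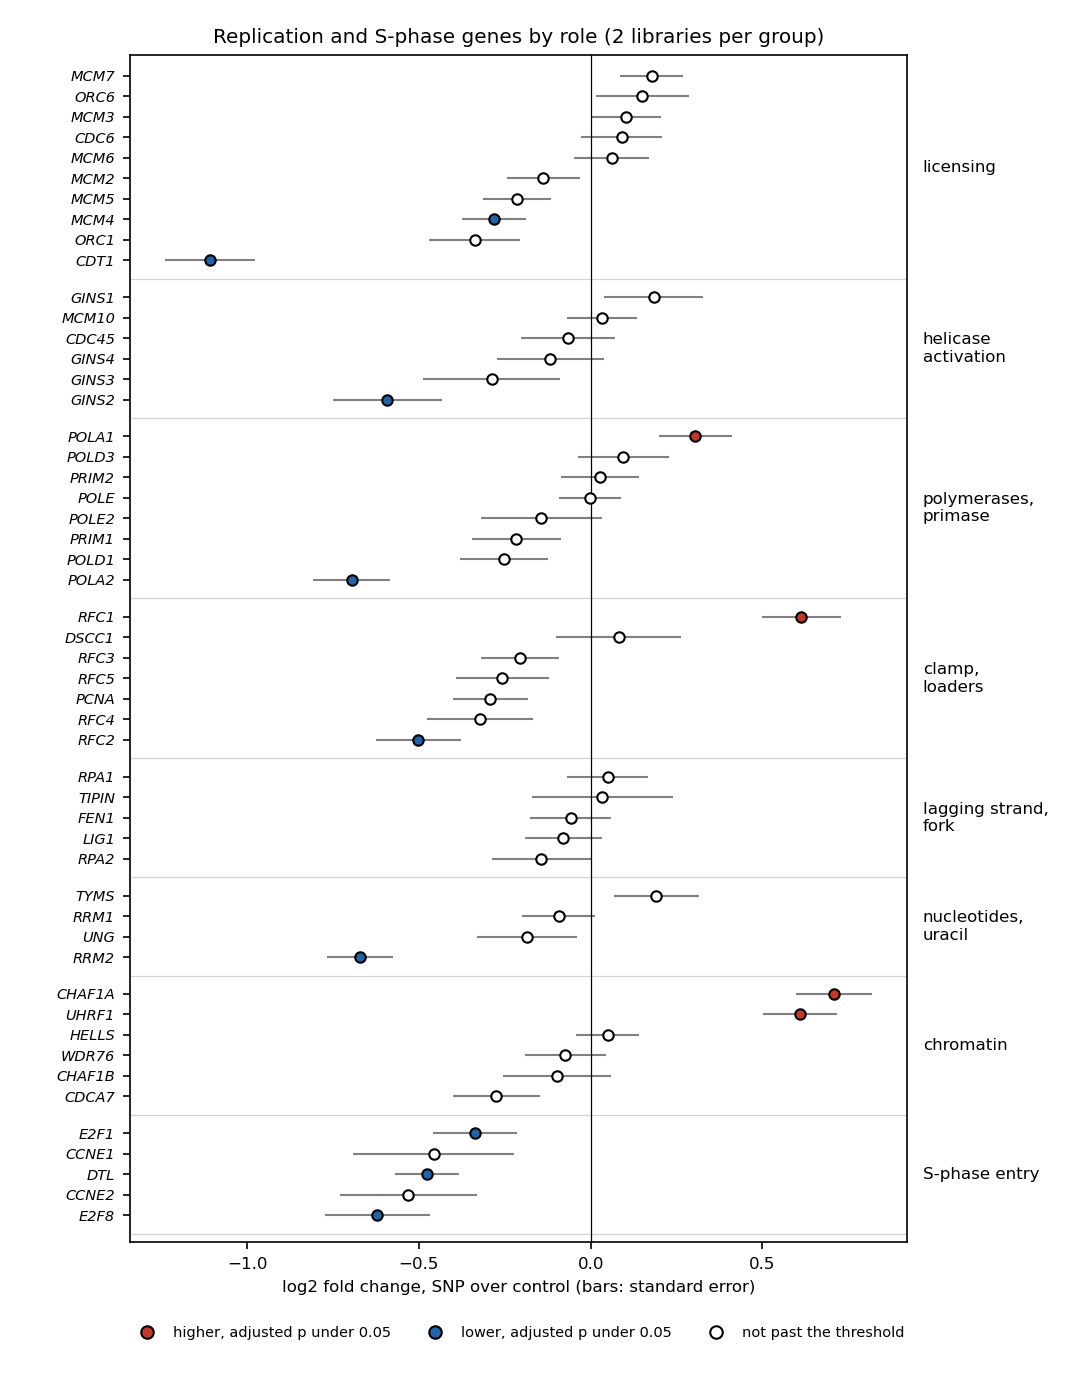
Log2 fold change of SNP over control for each of the 51 genes (horizontal axis, bars are standard errors, 2 libraries per group), ordered by role. The 9 lowered genes are filled blue and the 4 raised genes red; all 5 genes of S-phase entry lie left of 0, and the 5 lagging strand and fork genes lie between -0.14 and 0.049 in this fit without composition offsets.

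E2F motifs were present in the promoters of members that fell, members that rose and members that were not called. RefSeq promoter windows of GRCh38.p14, from 250 bases before to 50 bases after a start site, were matched for 42 members by symbol, using the most upstream window of each gene. CCNE2, DSCC1, E2F8, GINS4, MCM4, MCM5, POLD3, RPA2 and WDR76 had no entry. The motifs searched were TTTCCCGC, TTTCGCGC, TTTGCCGC and TTTGGCGC on both strands, and matches may overlap one another. A match was present in 22 of the 42 windows (52.4%), against 3.34% of 27305 windows of all genes and 5.29% of 10416 windows of genes tested here. The members were chosen as genes described as driven by E2F, so a higher share among them follows from that choice. It was present in 5 of 7 windows of members that fell, 2 of 4 of those that rose and 15 of 31 of those not called. A match describes letters, not bound factor. The RefSeq start sites of CDT1, POLA2, DTL, GINS2, UHRF1, E2F1 and PCNA lie inside the GENCODE 29 genes whose positions are given below.

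The stretches that follow show the match nearest before the start site for every called member that had one, and for PCNA and POLE, which were not called; the motif is in capitals, and each line reads 5′ to 3′ on the gene's strand. The same motif letters stand before genes that moved in opposite directions: GCGGGAAA is found at CDT1 and GINS2, which fell, at UHRF1, which rose, and at PCNA.
CDT1 (fell), chr16:88803743-88803772, plus strand: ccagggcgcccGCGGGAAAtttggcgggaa
POLA2 (fell), chr11:65261898-65261927, plus strand: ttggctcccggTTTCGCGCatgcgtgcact
DTL (fell), chr1:212035718-212035747, plus strand: caatcagagagcgtgacgtcagTTTGGCGC
GINS2 (fell), chr16:85688967-85688996, minus strand: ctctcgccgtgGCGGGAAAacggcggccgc
E2F1 (fell), chr20:33686387-33686416, minus strand: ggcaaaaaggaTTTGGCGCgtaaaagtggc
UHRF1 (rose), chr19:4909471-4909500, plus strand: caaatgccgagttttcGCGGGAAAaaaatc
POLA1 (rose), chrX:24693770-24693799, plus strand: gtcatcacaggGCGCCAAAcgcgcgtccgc
PCNA (not called), chr20:5126663-5126692, minus strand: cagcgtcagggGCGGGAAAaggcgtgcgtt
POLE (not called), chr12:132687343-132687372, minus strand: ctgggtgggagcGCGCCAAAtttctcccct

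Among the 10 licensing genes, 2 fell and none rose. Over all genes tested 12.6% fell and 13.6% rose, which is the background of the counts in each role below. CDT1 (ENSG00000167513, chromosome 16, 88803213 to 88809258, plus strand), which brings the MCM ring to the origin and is destroyed once S phase begins, had the largest change of the list. Its level was 89.6 and 85.2 CPM in control a and b, and 35.8 and 45.4 CPM in SNP a and b. Both SNP values were well below both control values, and the log2 fold change was -1.11 (SE 0.131, adjusted p-value 4.0e-06 by edgeR). MCM4 (ENSG00000104738, chromosome 8, 47960185 to 47978160, plus strand), a subunit of the ring, had 306 and 326 CPM in control and 257 and 263 CPM in SNP libraries. The groups did not overlap, but the difference was small, at -0.28 (SE 0.0934, adjusted p-value 0.030 by edgeR). Without control a, control b or SNP a the adjusted p-values of MCM4 were 0.086, 0.26 and 0.073, and with the read totals implied by RPKM 0.36, so its call held among the alternatives that leave out a library only without SNP b.

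The other licensing genes did not pass. ORC1, the largest subunit of the origin recognition complex, had 52.6 and 51.3 CPM in control and 43.3 and 38.9 CPM in SNP libraries, with a log2 fold change of -0.34 and an adjusted p-value of 0.063 by edgeR. CDC6, which acts with CDT1 in loading, had 75.7 and 82.0 CPM in control and 89.1 and 78.6 CPM in SNP libraries, so its groups overlapped where those of CDT1 did not. The ratio of CDT1 to CDC6 in TPM, the deposited transcript level per length, was 1.82 and 1.59 in control and 0.616 and 0.886 in SNP libraries. MCM2 had 136 and 144 CPM in control and 119 and 135 CPM in SNP libraries (log2 fold change -0.14, adjusted p-value 0.37 by edgeR), and MCM5 a log2 fold change of -0.21. MCM6, CDC6, MCM3, ORC6 and MCM7 had positive values, from 0.062 for MCM6 to 0.18 for MCM7. MCM7 had 347 and 387 CPM in control and 411 and 418 CPM in SNP libraries, which did not overlap, yet it did not pass (adjusted p-value 0.17 by edgeR). The 6 subunits of the ring, which is built with 1 copy of each, therefore spanned -0.28 to 0.18 in this fit, with only MCM4 called. In the fit with composition offsets described further on, all 6 were negative, from -0.29 for MCM5 to -0.054 for MCM3. MCM2, MCM4 and MCM5 were then called lower. That fit called 4 of the 10 licensing genes lower and none higher, where 18.5% of all genes passed.

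Of the 6 genes of helicase activation, GINS2 fell and the other 5 did not pass. GINS2 (ENSG00000131153, chromosome 16, 85676198 to 85690073, minus strand), a subunit of the GINS complex, had 34.4 and 40.8 CPM in control and 26.8 and 22.9 CPM in SNP libraries. The groups were apart, with a log2 fold change of -0.59 (SE 0.159, adjusted p-value 0.0086 by edgeR), which did not pass without control b (-0.47, adjusted p-value 0.14). The other GINS subunits had values of 0.18 (GINS1), -0.29 (GINS3) and -0.12 (GINS4). CDC45 lay at -0.066. MCM10, an activation factor that is not part of the ring, had 148 and 161 CPM in control and 162 and 153 CPM in SNP libraries, a log2 fold change of 0.033 with overlapping groups.

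Of the 2 subunits of DNA polymerase alpha, the enzyme that starts each new strand together with primase, POLA2 was called lower and POLA1 higher, and only the call of POLA2 held with offsets for base composition. POLA2 (ENSG00000014138, chromosome 11, 65261762 to 65305589, plus strand), the accessory subunit, had 128 and 139 CPM in control and 76.7 and 87.9 CPM in SNP libraries, and fell with a log2 fold change of -0.70 (SE 0.112, adjusted p-value 1.1e-04 by edgeR). POLA1 (ENSG00000101868, chromosome X, 24693919 to 24996986, plus strand), the catalytic subunit, had 145 and 126 CPM in control and 174 and 161 CPM in SNP libraries, with a log2 fold change of 0.30 (SE 0.106, adjusted p-value 0.039 by edgeR). The ratio of POLA1 to POLA2 in TPM was 1.03 and 0.819 in control and 2.05 and 1.65 in SNP libraries. That these ratios were apart follows from the opposite directions of POLA1 and POLA2 and is no separate result. POLA2 kept its call in all 13 alternatives that tested it, whereas POLA1 did not pass in 8 of 14, with adjusted p-values of 0.067, 0.41 and 0.13 without control a, control b and SNP a. With the composition offsets described further on, POLA1 was at -0.018 (adjusted p-value 0.90 by edgeR) and POLA2 at -0.55 (0.0011). In POLA2, 2012 of 5726 exonic bases are shared with AP000944.2, and the division of reads there is uncertain. The primase subunits PRIM1 and PRIM2 had log2 fold changes of -0.22 and 0.027, and neither passed. Their TPM ratio, PRIM1 to PRIM2, was 1.37 and 1.72 in control and 1.39 and 1.21 in SNP libraries, with overlap.

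The replicative polymerases themselves did not pass. POLE, the catalytic subunit of the leading strand polymerase epsilon, had 328 and 339 CPM in control and 325 and 341 CPM in SNP libraries, the flattest gene of the list (log2 fold change -0.0021, SE 0.0916). Its accessory subunit POLE2 was at -0.14. POLD1, the catalytic subunit of polymerase delta, had a value of -0.25 and its subunit POLD3 one of 0.094.

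In the clamp group RFC2 fell, RFC1 rose and the other 5 genes did not pass. RFC1 (ENSG00000035928, chromosome 4, 39287456 to 39366375, minus strand), the large subunit of the clamp loader, had 110 and 99.6 CPM in control and 176 and 145 CPM in SNP libraries, with a log2 fold change of 0.61 (SE 0.114, adjusted p-value 4.7e-04 by edgeR). The 4 small subunits all had negative values. RFC2 (ENSG00000049541, chromosome 7, 74231499 to 74254458, minus strand) had 68.0 and 69.8 CPM in control and 45.8 and 51.5 CPM in SNP libraries, with a log2 fold change of -0.50 (SE 0.124, adjusted p-value 0.0048 by edgeR), and an adjusted p-value of 0.052 without control b. RFC3, RFC4 and RFC5 lay at -0.21, -0.32 and -0.26 and did not pass. The ratio of RFC1 to RFC2 in TPM was 0.534 and 0.470 in control and 1.27 and 0.927 in SNP libraries. That these ratios were apart follows from the opposite directions of RFC1 and RFC2 and is no separate result.

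PCNA (ENSG00000132646, chromosome 20, 5114953 to 5126626, minus strand), the sliding clamp and a common marker of S phase, had 96.8 and 101 CPM in control and 81.3 and 80.4 CPM in SNP libraries. The groups did not overlap, and the log2 fold change of -0.29 (SE 0.110) just missed the threshold, with an adjusted p-value of 0.054 by edgeR. In the fit with composition offsets it was -0.078 (adjusted p-value 0.56 by edgeR). DSCC1, a subunit of the alternative CTF18 clamp loader, was at 0.081 with overlapping groups. Pseudogenes of 8 members, PCNA and RRM2 among them, are named in the tables, and all were listed at 0 counts.

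None of the 5 lagging strand and fork genes passed. FEN1, the nuclease that trims Okazaki fragments, had 71.6 and 82.7 CPM in control and 74.1 and 73.8 CPM in SNP libraries (log2 fold change -0.059). FEN1 was called lower in the fit with composition offsets, at -0.54 (adjusted p-value 0.0020 by edgeR). LIG1, the ligase that joins the fragments, was at -0.079, and the single-strand binding subunits RPA1 and RPA2 were at 0.049 and -0.14. TIPIN, a fork protection factor, was at 0.034 with a wide SE of 0.204.

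In nucleotide supply, RRM2 fell while its partner did not pass in the fit without composition offsets. RRM2 (ENSG00000171848, chromosome 2, 10120698 to 10131419, plus strand), the S-phase subunit of ribonucleotide reductase, had 269 and 255 CPM in control and 168 and 161 CPM in SNP libraries. Its replicates were close together and the groups far apart, with a log2 fold change of -0.67 (SE 0.097, adjusted p-value 3.9e-05 by edgeR). RRM1, the large subunit that pairs with RRM2, had 126 and 115 CPM in control and 114 and 112 CPM in SNP libraries (log2 fold change -0.093, adjusted p-value 0.56 by edgeR). In the fit with composition offsets RRM1 was called lower as well, at -0.34 (adjusted p-value 0.014 by edgeR). The ratio of RRM1 to RRM2 in TPM was 0.575 and 0.555 in control and 0.836 and 0.854 in SNP libraries. RRM2 shares 1077 of its 5323 exonic bases with AC007240.1, which had 1859 counts over the 4 libraries beside 5750 for RRM2.

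TYMS, which makes thymidylate, had 75.3 and 83.1 CPM in control and 100 and 80.1 CPM in SNP libraries, so that SNP b lay within the control range (log2 fold change 0.19, adjusted p-value 0.28 by edgeR). It shares 967 exonic bases with ENOSF1, which had 1352 counts in all beside 2371 for TYMS, and the reads of this pair cannot be assigned with certainty. UNG, which removes uracil from DNA, was at -0.19 and did not pass.

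Of the 6 genes of the chromatin group 2 rose and none fell, beside 13.6% and 12.6% of all genes. With the composition offsets 2 were higher and 1, HELLS, was lower (-0.41, adjusted p-value 9.9e-04 by edgeR). CHAF1A (ENSG00000167670, chromosome 19, 4402662 to 4445018, plus strand), the large subunit of the histone chaperone CAF-1 that works behind the fork, had 82.7 and 92.9 CPM in control and 137 and 150 CPM in SNP libraries. This was the largest rise of the list, with a log2 fold change of 0.71 (SE 0.110, adjusted p-value 7.9e-05 by edgeR). CHAF1B, the next subunit of CAF-1, had 46.4 and 33.2 CPM in control and 39.5 and 35.1 CPM in SNP libraries, with both SNP values inside the control range (log2 fold change -0.098). The ratio of CHAF1A to CHAF1B in TPM was 2.12 and 3.33 in control and 4.12 and 5.07 in SNP libraries.

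UHRF1 (ENSG00000276043, chromosome 19, 4903080 to 4962154, plus strand), which reads hemimethylated DNA and brings the maintenance methyltransferase, had 99.3 and 99.8 CPM in control and 161 and 142 CPM in SNP libraries, and rose with a log2 fold change of 0.61 (SE 0.108, adjusted p-value 2.8e-04 by edgeR). HELLS, a chromatin remodeller with the highest CPM of the list, had 532 and 478 CPM in control and 543 and 503 CPM in SNP libraries (log2 fold change 0.050). CDCA7, which acts with HELLS, was at -0.28 and WDR76 at -0.074, and neither passed.

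Of the 5 genes of S-phase entry 3 fell, beside 12.6% of all genes, and only DTL of these was also called with the composition offsets. All 5 had both SNP values below both control values, beside 32.3% of all genes, and with RPKM read totals 4 did, CCNE2 being the exception. DTL (ENSG00000143476, chromosome 1, 212035553 to 212107400, plus strand), the substrate receptor of the ubiquitin ligase that destroys CDT1 on PCNA, had 315 and 319 CPM in control and 232 and 223 CPM in SNP libraries. Its log2 fold change was -0.48 (SE 0.0933, adjusted p-value 7.2e-04 by edgeR). E2F8 (ENSG00000129173, chromosome 11, 19224063 to 19241620, minus strand), a repressor of E2F targets, had 36.5 and 38.0 CPM in control and 22.9 and 25.5 CPM in SNP libraries, a log2 fold change of -0.62 (SE 0.154, adjusted p-value 0.0049 by edgeR).

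E2F1 (ENSG00000101412, chromosome 20, 33675683 to 33686404, minus strand), an activating factor, had 62.8 and 66.9 CPM in control and 50.2 and 52.4 CPM in SNP libraries. Its call was marginal, with a log2 fold change of -0.34 and an adjusted p-value of 0.046 by edgeR, and it did not pass in 9 of 14 alternatives, among them those without control a (0.15), control b (0.31) and SNP a (0.10). CCNE1 and CCNE2 encode cyclin E, the partner of CDK2 at the start of S phase. CCNE2 had 29.9 and 21.3 CPM in control and 20.5 and 15.0 CPM in SNP libraries, with control b only just above SNP a (log2 fold change -0.53, adjusted p-value 0.053 by edgeR); it passed without control b (-0.75, adjusted p-value 0.015) and without SNP a (-0.78, 0.0092). Of its exonic bases, 1629 are shared with INTS8. CCNE1, the least counted member, had 13.7 and 12.8 CPM in control and 8.18 and 11.2 CPM in SNP libraries (log2 fold change -0.46, adjusted p-value 0.16 by edgeR).

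**Figure D2:**
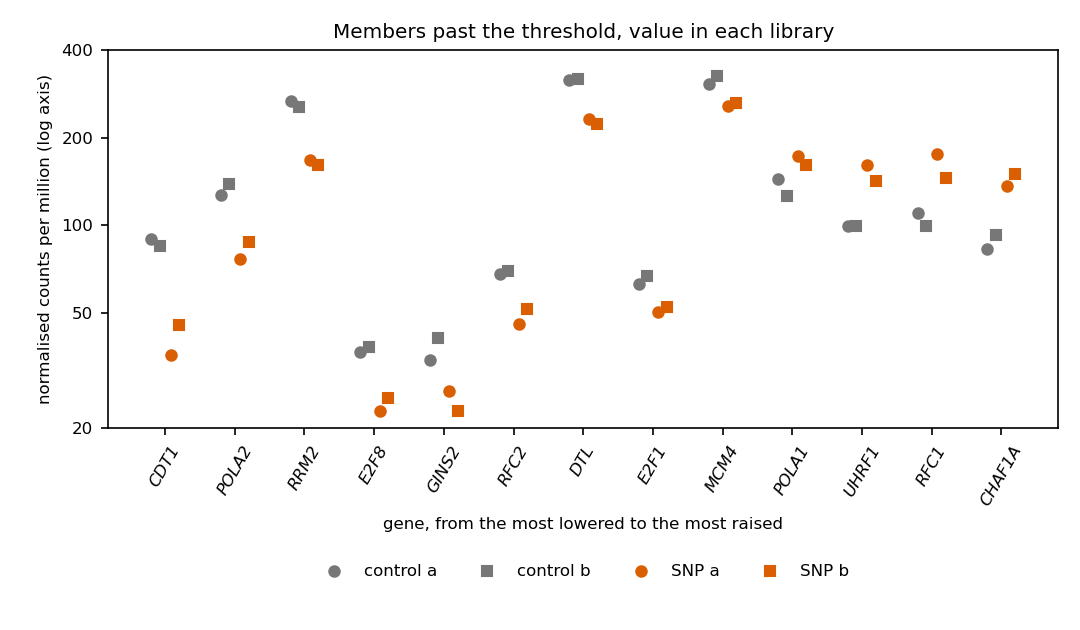
Normalised CPM (log axis) of the 13 genes past the threshold in each of the 4 libraries, ordered from CDT1 to CHAF1A. In all 13 the control and SNP libraries are apart, most widely for CDT1 (85.2 and 89.6 CPM against 35.8 and 45.4 CPM).

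Levels of different genes were compared per length, in the deposited TPM values. The control libraries gave the highest level for MCM7 (393 ± 35.6 TPM), followed by PCNA (317 ± 14.1) and DTL (303 ± 6.47), and the lowest for CCNE1 (24.4 ± 0.898) and GINS3 (21.4 ± 0.672; SD, n = 2 each). MCM7 stood above PCNA without overlap, while PCNA and DTL overlapped. Within the MCM ring the control order was MCM7, MCM3 (250 ± 20.4), MCM4 (218 ± 12.9), MCM5 (151 ± 8.25), MCM6 (145 ± 1.15) and MCM2 (134 ± 7.54), in which only MCM5 and MCM6 overlapped (TPM, SD, n = 2). In SNP libraries MCM7 was at 483 ± 21.5 TPM and MCM2 at 133 ± 15.8 TPM. For about 90% of the genes counted, the length behind the deposited RPKM was that of all annotated exons merged. This length enters every order given here, and was 7338 bases for MCM5 and 3650 for MCM3. In control MCM5 had 228 and 242 CPM and MCM3 185 and 203 CPM, the reverse of their TPM order. Whether the transcripts of the ring's subunits were unequal in number was not tested. Of the 50 pairs of neighbours in the order of all 51 genes in control, 40 had overlapping ranges. TPM was not used to test SNP against control. The TPM ratio of SNP to control exceeded the CPM ratio of the same gene by 8.12% to 9.07%.

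**Figure D3:**
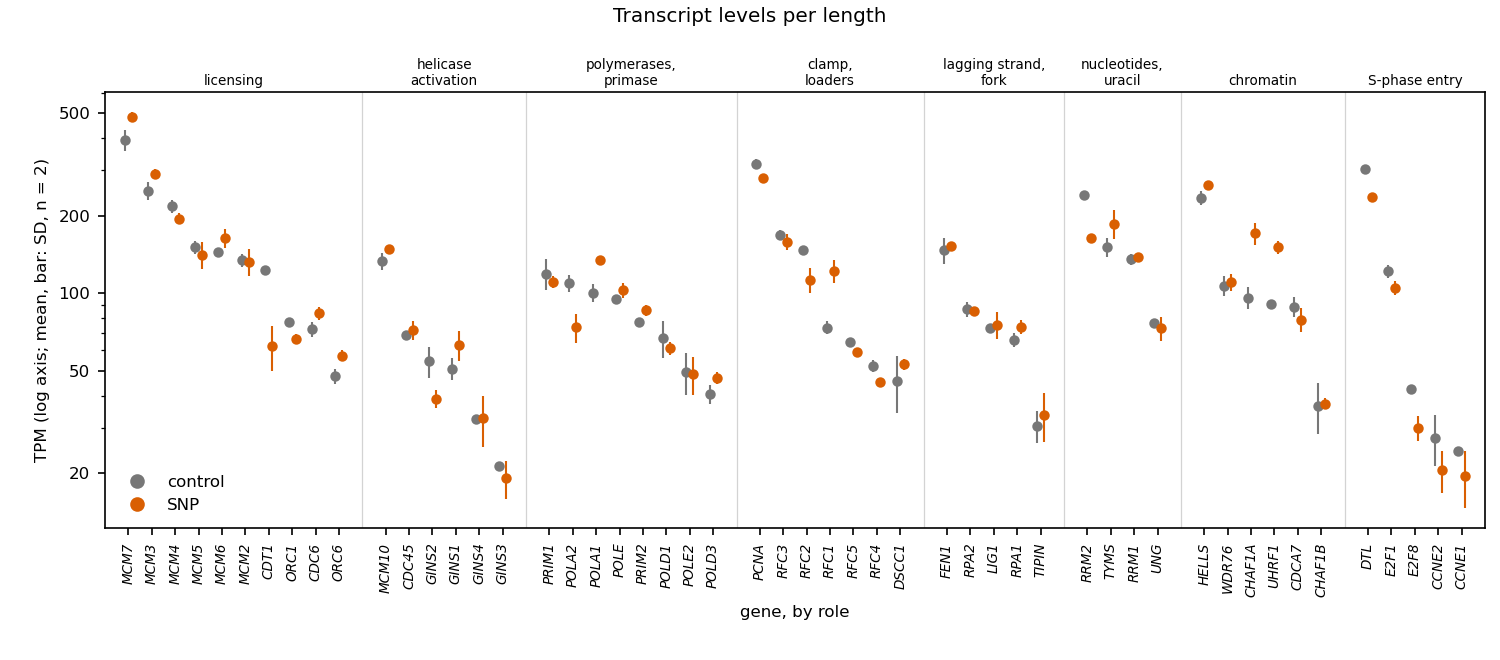
TPM (log axis) of the 51 genes in control (grey) and SNP (orange) libraries, as mean and SD of 2 libraries, by role. Levels run from 21.4 TPM (GINS3) to 393 TPM (MCM7) in control, and MCM7 has the highest and GINS3 the lowest control mean. Distances between the colours include the 8.12% to 9.07% by which TPM ratios exceed CPM ratios.

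The direction of the members went with the base composition of their transcripts. Guanine minus cytosine, as a share of all bases in a gene's annotated transcripts, ranged from -4.05 percentage points in CDT1 to 7.19 in FEN1, with a median of 2.02 over the members and 1.04 over all genes tested. The 9 genes that fell had a median of 0 and the 4 that rose one of 3.62. Across the 51 members the Spearman correlation of this measure with the log2 fold change was 0.648, and 0.480 across 14724 genes tested; genes of the same 4 libraries are not independent, and no p-value is given. CDT1 lay at percentile 5.55 of all genes in this measure and UHRF1 at 88.9.

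A fit with offsets for gene length, GC content and guanine minus cytosine, which removes such trends, changed which members were called. With the offsets 16 members passed, 13 lower and 3 higher, where 18.5% of all genes passed. The calls of 10 members stood in both fits with the same sign: CDT1 (-0.74), RRM2 (-0.74), POLA2 (-0.55), GINS2 (-0.55), RFC2 (-0.42), DTL (-0.31) and MCM4 (-0.25) were lower, and CHAF1A (0.61), RFC1 (0.37) and UHRF1 (0.31) higher. E2F8, E2F1 and POLA1 were no longer called, at -0.29, -0.18 and -0.018 (adjusted p-values 0.14, 0.22 and 0.90 by edgeR). A further 6 genes were called lower only with the offsets, namely FEN1 (-0.54), RFC4 (-0.49), HELLS (-0.41), RRM1 (-0.34), MCM5 (-0.29) and MCM2 (-0.25). The median of the members was -0.19 with the offsets, beside 0.0025 for all genes. The part of base composition in these changes was not tested further.

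**Figure D4:**
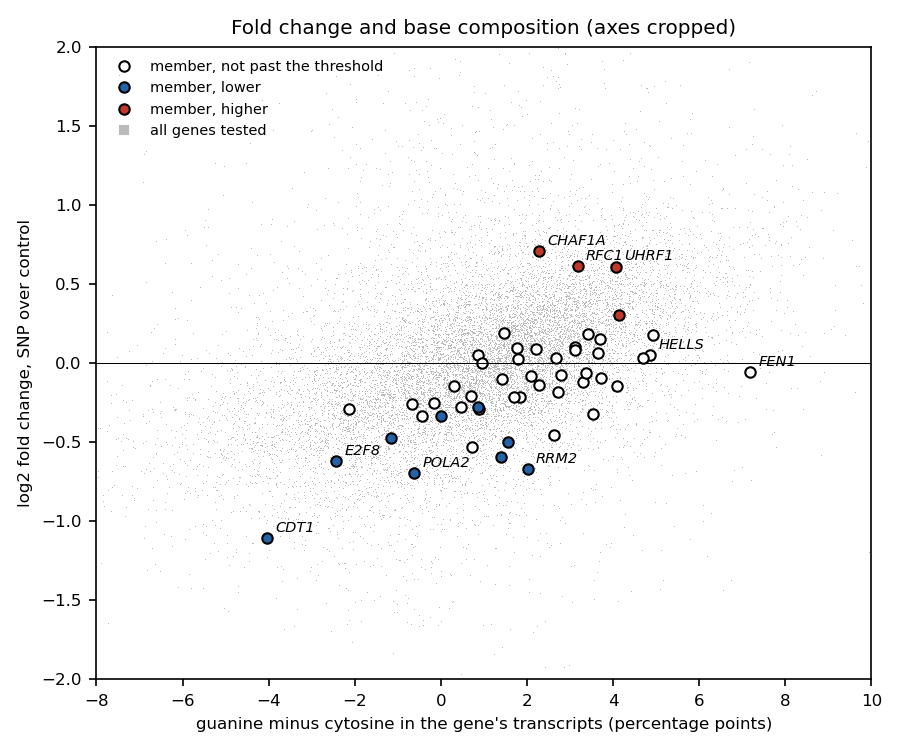
Log2 fold change of SNP over control against guanine minus cytosine (percentage points) for the 51 genes (circles, blue lower, red higher, open not called) and all genes tested (grey). CDT1 lies at the lower left (-4.05 points, -1.11), the raised genes lie right of the median of all genes at 1.04 points, and FEN1 lies farthest right at 7.19 points.

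Replication genes outside the list were mostly not called, as were most of all genes tested. Of 30 other replication genes, 3 fell, 3 rose and 24 did not pass, with a median log2 fold change of -0.076. The background over all genes tested was 12.6% lower and 13.6% higher, or 26.2% in either direction. With the composition offsets 7 of the 30 were lower and 2 higher, where 18.5% of all genes passed, and 3 of the 6 calls were kept. The 3 not kept, named after their values were seen, were CLSPN (0.51, and -0.015 with offsets), TICRR (-0.34 and -0.10) and CHTF18 (0.45 and 0.27). Leaving out single libraries gave medians of the 30 from -0.14 to -0.019. CHTF8, a subunit of the CTF18 clamp loader, fell from 98.5 and 104 CPM in control to 40.4 and 55.9 CPM in SNP libraries (-1.07, adjusted p-value 8.7e-06 by edgeR). TOP1, the topoisomerase that relieves torsion ahead of the fork, rose from 121 and 110 to 172 and 160 CPM (0.52, adjusted p-value 0.0010 by edgeR).

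Of 14 further genes of nucleotide and histone supply, 4 fell and 2 rose, with a median of -0.067. Over all genes tested 12.6% fell and 13.6% rose. With the composition offsets 4 of the 14 were lower and 1 higher, where 18.5% of all genes passed. Of the 6 calls 3 were kept with their sign. NASP, a histone chaperone named after its values were seen, was called higher (0.35, adjusted p-value 0.010 by edgeR) and, with the offsets, lower (-0.29, adjusted p-value 0.0078). Leaving out single libraries gave medians of the 14 genes from -0.23 to 0.064. TK1, the thymidine kinase of S phase, had 46.3 and 44.0 CPM in control and 18.9 and 19.2 CPM in SNP libraries (-1.25, SE 0.152, adjusted p-value 5.9e-06 by edgeR), a fall like that of RRM2 in sign. ASF1B, a histone chaperone, fell by 0.95 on the log2 scale but did not pass with the composition offsets (-0.51, adjusted p-value 0.11 by edgeR). RRM2B, the alternative small subunit of ribonucleotide reductase, named here after its values were seen because it pairs with RRM1 in place of RRM2, rose from 31.8 and 34.3 to 61.2 and 58.7 CPM (0.86, adjusted p-value 7.1e-05 by edgeR).

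Among 24 genes of the E2F and RB families and G1 control, 23 were tested, of which 5 fell and 4 rose (median -0.12). In the fit with composition offsets 5 were lower and 5 higher, where 18.5% of all genes passed, and 7 of the 9 calls were kept. Over all genes tested 12.6% fell and 13.6% rose. Leaving out single libraries gave medians of this list from -0.13 to -0.061. CDKN1A, the kinase inhibitor that blocks entry into S phase and binds PCNA, rose from 21.0 and 19.4 CPM in control to 78.3 and 114 CPM in SNP libraries (2.25, SE 0.165, adjusted p-value 1.1e-08 by edgeR). CDKN2C, an inhibitor of CDK4 and CDK6, fell from 21.1 and 16.0 to 9.06 and 10.2 CPM (-0.95, adjusted p-value 0.0027 by edgeR), and did not pass without control a (-0.73, adjusted p-value 0.065). Whether CDKN1A had a part in the changes of the replication genes was not tested.

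The lists of the later cell cycle and of histones lay lower than the replication list. Of 25 genes of G2 and mitosis, 14 fell, 1 rose and 10 did not pass, with a median of -0.49. Over all genes tested 12.6% fell and 13.6% rose, which is the background of both lists. The gene that rose, CENPF, a kinetochore protein, was at 0.29 (adjusted p-value 0.030 by edgeR) and was called lower with the composition offsets (-0.26, adjusted p-value 0.017). With these offsets 21 of the 25 were lower and none higher, where 18.5% of all genes passed. Without control a the median was -0.32. CDC20 and UBE2C, which drive the exit from mitosis, fell by 1.27 and 1.18 on the log2 scale. Replication-dependent histones were taken as the 90 genes whose names start with HIST1H, HIST2H, HIST3H or HIST4H. Some are pseudogenes by name, such as HIST2H3DP1, which was listed at 0 counts in all 4 libraries. Of the 90 genes 63 were tested, of which 47 fell and none rose, with a median of -1.12. The SNP libraries stood apart from each other in this list, with a summed level of 1093 CPM in SNP a and 689.5 CPM in SNP b, beside 1738 and 1982 CPM in control, and 61 of the 63 were lower in SNP b than in SNP a. Without SNP b the median was -0.75, and without SNP a it was -1.65. With the composition offsets 32 of the 47 calls were kept, where 18.5% of all genes passed, and the median was -0.73. HIST1H2AJ and HIST1H2BM both had log2 fold changes of -1.67, and reads can be split among the near-identical copies of this family. No test compared these lists with each other.

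**Figure D5:**
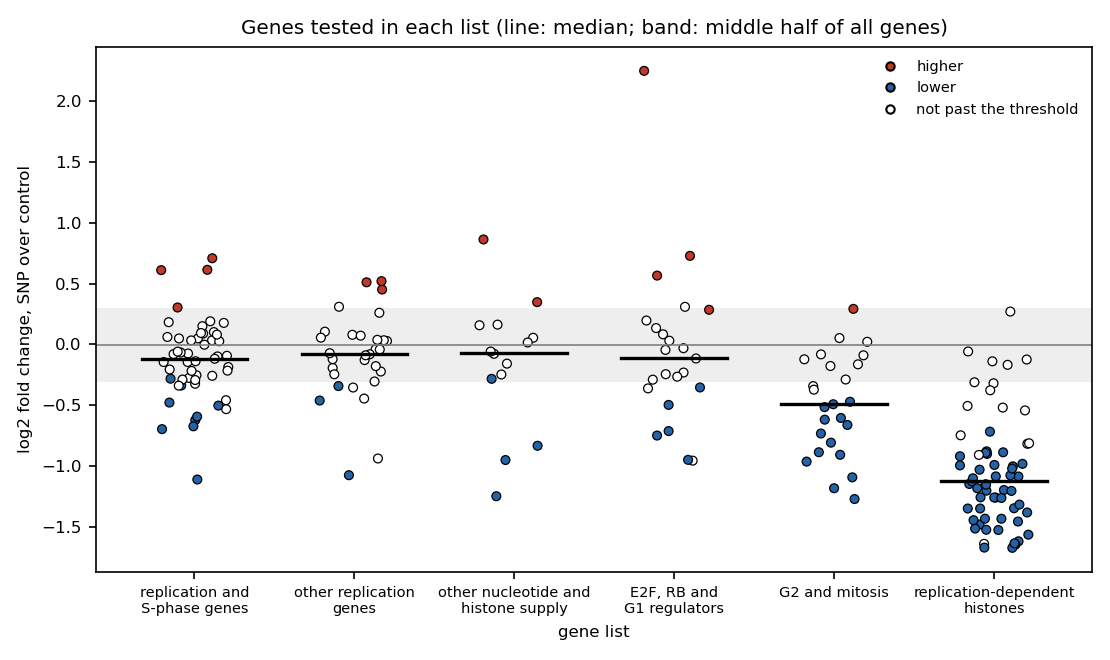
Log2 fold change of SNP over control for the tested genes of each list (points, blue lower, red higher, open not past the threshold), with the list's median as a line and the middle range of all genes as a band. The replication list (median -0.12) sits close to all genes, G2 and mitosis genes (median -0.49) and replication-dependent histones (median -1.12) sit lower, and CDKN1A stands alone at 2.25.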

How the data were processed

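Groups and replicate letters were taken from the sample titles. Per the labels, reads were 75 bp at 40 M reads per sample, and GRCh38 is the build in the submitters' processing notes; the aligner, counter and annotation are not given in the sources used here. The authors deposited whole-number read counts per gene, TPM scaled to one fixed sum per library, and RPKM whose read total exceeds the summed counts. Tests used the counts. TPM compared genes, and RPKM gave the read totals of one alternative.

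Genes were kept by filterByExpr of edgeR 4.0.16 in R 4.3.3 (minimum count 10, minimum total 15), scaled by TMM, and tested by quasi-likelihood with all 4 libraries and no covariate, with Benjamini-Hochberg adjustment over 14759 genes and a threshold of 0.05. SE is the absolute log2 fold change over the root of F. Gene positions, lengths, overlaps (either strand) and base composition are those of GENCODE 29, in which 57980 of 58243 identifiers were found. Promoter stretches were cut to 30 bases because, for 8 of the 9 genes printed, some of the 250 bases before the start site lie in GENCODE 29 exons. Scripts were tested on simulated counts.

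Members and lists were chosen with earlier results of these data known. The rule for genes described library by library took, per role, up to 2 called genes with the largest change and the gene with the highest TPM, then PCNA, MCM2, MCM7, CCNE1, CCNE2, E2F1, RRM2, TYMS, CDC6 and CDT1, and up to 2 called genes per further list; others were added after their values were seen. Alternatives were 2 other filters, DESeq2 1.42.0 size factors, RPKM read totals, DESeq2's Wald test, limma-voom (limma 3.58.1), the replicate letter as a block, composition offsets (lowess, span 0.5, 3 passes) with and without that block, genes without exon overlap, and leaving out each library.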

Additional observations from a re-analysis of the deposited data

How the results depend on the processing

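Of the 13 genes called, 7 (CDT1, RRM2, POLA2, DTL, CHAF1A, UHRF1 and RFC1) kept direction and call in every alternative that tested them, and E2F1, POLA1, MCM4, E2F8, GINS2 and RFC2 did not. The count of 13 genes called ranged from 9 to 15 when single libraries were left out, the lower calls from 6 to 10, the higher calls from 3 to 5, and the median log2 fold change of -0.12 from -0.15 to -0.10; the median was -0.052 with RPKM read totals, -0.19 with the composition offsets, and -0.19 with these and the replicate block, where 14 genes were lower and 19.3% of all genes passed. All genes called numbered 3861, 2415 with DESeq2's Wald test, 2018 among genes without exon overlap and 2447 to 4144 without single libraries. With the replicate letter as a block 30.4% of all genes and 16 members passed, the same 13 with CCNE2 (adjusted p-value 0.021), PCNA (0.033) and ORC1 (0.047) by edgeR; same-lettered deviations correlated at 0.050 across genes, so the letters are not shown to pair the libraries, and the samples share only a letter.

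Signs turned for the members that follow, most of them not called; POLA1 had been called, at 0.30, and MCM7 had been at 0.18 with its groups apart. With the composition offsets, and with these and the replicate block, the log2 fold changes were -0.0033 and -0.0032 for CDC6, -0.044 and -0.029 for DSCC1, -0.038 and -0.037 for GINS1, -0.41 and -0.41 for HELLS, -0.11 and -0.11 for MCM10, -0.054 and -0.055 for MCM3, -0.18 and -0.18 for MCM6, -0.19 and -0.19 for MCM7, -0.087 and -0.085 for ORC6, -0.018 and -0.016 for POLA1, -0.093 and -0.095 for PRIM2, and -0.25 and -0.26 for TIPIN. POLE was at 0.022 and 0.022 there, 0.0017 with a mean count of at least 50, 0.0015 with DESeq2 size factors, 0.0015 with DESeq2's Wald test and 0.066 with RPKM read totals, where CDC45 was at 0.00036 and FEN1 at 0.013. Leaving out single libraries gave ranges across 0 for CDC6 (-0.0044 to 0.18), CHAF1B (-0.31 to 0.17), DSCC1 (-0.16 to 0.38), FEN1 (-0.17 to 0.047), GINS4 (-0.32 to 0.067), HELLS (-0.025 to 0.12), LIG1 (-0.17 to 0.010), MCM10 (-0.033 to 0.096), MCM6 (-0.066 to 0.18), POLE (-0.034 to 0.033), POLE2 (-0.37 to 0.074), PRIM2 (-0.015 to 0.066), RPA1 (-0.051 to 0.15), TIPIN (-0.24 to 0.27) and WDR76 (-0.19 to 0.032). The cause was not tested. The largest SE among the members was that of CCNE1 (0.234).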
